A study of Mus musculus with 6 samples.

Results

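The genes described here are 37 genes of mitochondrial and peroxisomal fatty acid oxidation, ketone body metabolism and Ppar response, chosen by symbol from a list, out of 47643 genes in the count table. All 37 were found in the table, and all 37 passed the filter on low counts that left 12720 genes for testing. Polyadenylated RNA of mouse intestine was measured in 6 libraries from C57BL/6 males aged 7 to 8 weeks. Every mouse had been injected with tamoxifen and had eaten a diet with 60% fat for 2 weeks. The 3 controls are labelled Mycfl/fl and carry the floxed Myc gene. The 3 deleted libraries are labelled MycΔIE, ERT2, a name for loss of Myc from intestinal epithelial cells by a recombinase that tamoxifen switches on. The labels name no promoter for the recombinase, no segment of the intestine and no count of mice per library, and they do not say whether the controls carry the recombinase. Loss of Myc and presence of the recombinase then cannot be told apart. The p-values measure the spread between these libraries, which the labels do not tie to separate litters.

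Fatty acid oxidation breaks acyl chains down to acetyl-CoA in rounds of dehydrogenation, hydration, further dehydrogenation and thiolysis. Long chains enter mitochondria as carnitine esters, while very long and branched chains are shortened in peroxisomes first, and acetyl-CoA can leave as ketone bodies. The Ppar nuclear receptors bind fatty acids and switch on many of these genes, in enterocytes as in the liver.

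Levels are given as CPM, counts scaled to library size by the TMM method, in the order of libraries 1 to 3 of each group. Library totals were 9956938 to 11328693 expected counts. Myc stood at 5.86, 6.05 and 6.03 CPM in controls 1 to 3 and at 3.29, 4.36 and 5.81 CPM in deleted libraries 1 to 3 (log2 fold change -0.41 ± 0.22 SE, edgeR adjusted p = 0.318). Deleted library 3 was close to the controls, so its label was not checked by this level. The protocol for extraction speaks of liver, where the other labels name intestine. All 16 enterocyte markers were detected, with sums of 44480 to 50170 CPM in the controls and 53900 to 60280 CPM in the deleted libraries, without overlap. Marker sums here are CPM without the TMM factor. The estimates were positive for 13 of the 16 markers and negative for 3. Fabp2 (means 4759 and 8859 CPM) and Apoa1 (9503 and 13280 CPM) had the widest gaps between group means. Of these 16 markers, 3 were called higher (Fabp2, Apoa1 and Lct) and 0 lower, while the log2 fold changes of Vil1, Sis and Anpep were 0.019, -0.011 and -0.11 and did not pass. Of 7 tested markers of gut region, 2 were higher, Fgf15 (3.86-fold) and Gata4 (2.82-fold), and 2 lower, Car4 (2.65-fold) and Slc40a1 (8.31-fold), while Fabp6 of the ileum averaged 11004 ± 1462 and 10559 ± 951 CPM (SD, n = 3 each). The part of gut region in the differences below was not tested. The 10 hepatocyte markers summed to 181 to 236 CPM in the controls and 203 to 259 CPM in the deleted libraries, mostly Cps1, which is expressed in gut too. Alb (2.61 ± 0.667 and 0.582 ± 0.433 CPM) and Tat (32.2 ± 8.22 and 11.7 ± 6.00 CPM) were called lower. The 7 smooth muscle markers summed to 103.4 CPM in control 2 and to 23.5 to 36.3 CPM elsewhere. Of 7 adipocyte markers, Adipoq, Plin1, Lep and Retn were at 0 in every library. The 7 summed to 43.9 to 54.3 CPM in the controls and 68.5 to 71.9 CPM in the deleted libraries, without overlap. Most of that was Cidec (means 49.0 and 69.6 CPM), which was called higher, while Fabp4 did not pass (-0.19, edgeR adjusted p = 0.824). Sums of the crypt, goblet and Paneth, immune, and fibroblast and endothelium lists overlapped between the groups. Of 11 tested crypt markers, 0 were called, with 5 positive and 6 negative estimates. Olfm4, Smoc2 and Mki67 were lower without overlap (log2 fold changes -0.94, -0.90 and -0.39). Of 10 tested immune markers, 1 was called, Itgam, which was lower (-1.55, edgeR adjusted p = 0.000693). Fewer cells of a type and less RNA per cell cannot be told apart in tissue, and the part of cell composition in the differences below was not tested.

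In the deleted libraries, 6 of the 37 genes were lower and 1 was higher. The lower genes were both ketone body enzymes, Acat1 and Bdh1, the medium- and short-chain acyl-CoA dehydrogenases Acadm and Acads, the electron acceptor Etfdh, and the peroxisomal enzyme Ehhadh, whose means fell by 16.9% (Etfdh) and, at the most, fell by 27.4% (Bdh1). Angptl4, a secreted inhibitor of lipoprotein lipase, was 1.86-fold higher. A gene was called where the edgeR quasi-likelihood test gave a Benjamini-Hochberg adjusted p under 0.05 over all genes. By that rule 3.73% of all tested genes were lower and 4.22% higher. The median log2 fold change was -0.047 over the 37 genes, 18 positive and 19 negative, and -0.00212 over all tested genes. Removing single libraries changed these counts. The lower genes numbered 2, 1 and 3 when control 1, 2 or 3 was removed, and 4, 4 and 3 when deleted library 1, 2 or 3 was removed. The higher genes numbered 2 when control 3 was removed, 3 when deleted library 1 was removed, and 1 in the other 4 runs.

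**Figure D1:**
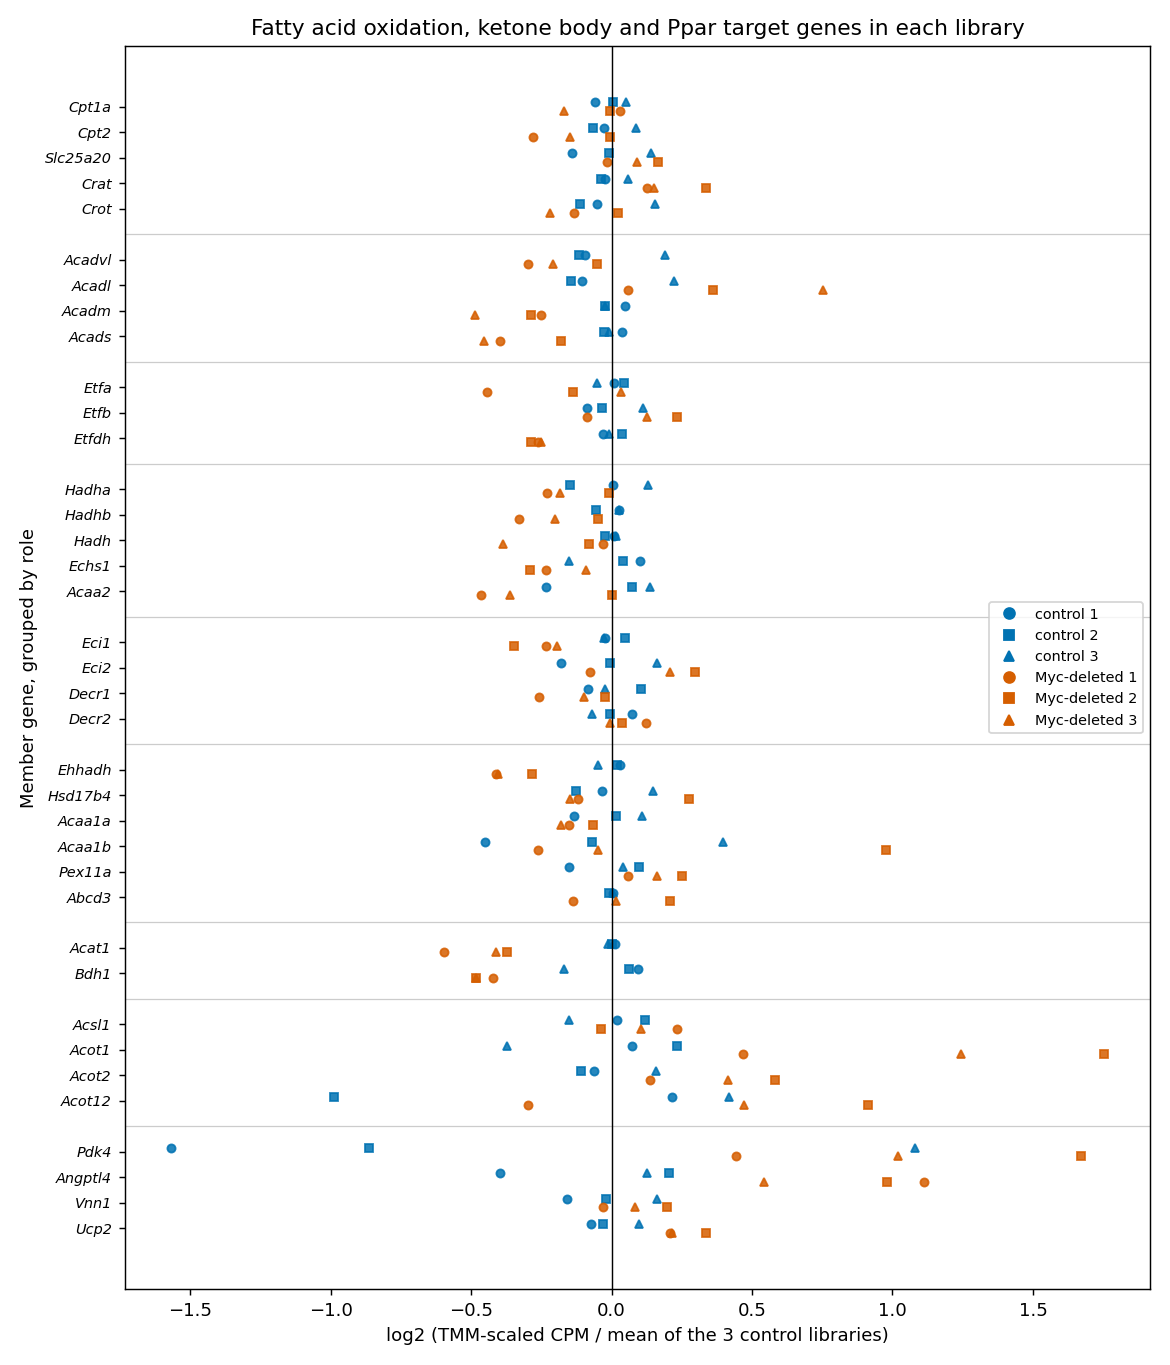
Level of each of the 37 genes in each of the 6 libraries, as log2 of the CPM over the mean of the 3 controls (x axis), with genes grouped by role (y axis), controls in blue and deleted libraries in orange, and the marker shape giving the library number. The deleted points of Acat1, Bdh1, Ehhadh, Acadm, Acads and Etfdh lie left of every control and those of Angptl4 right of them, while Pdk4 spreads from 3.18 to 19.9 CPM within the controls alone.

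Both ketone body enzymes fell, by the most of the 6 lower genes. Acat1 encodes the mitochondrial acetoacetyl-CoA thiolase (chromosome 9, 53580522 to 53610382, GRCm38), which acts at the entry to ketone synthesis and at the end of ketone use. It stood at 60.3, 59.8 and 59.4 CPM in controls 1 to 3 and 39.5, 46.2 and 44.9 CPM in deleted libraries 1 to 3. The controls lay close together (SD 0.486 CPM), and every deleted library lay below them. The log2 fold change was -0.46 ± 0.084 (95% confidence interval -0.65 to -0.27, adjusted p = 0.00971), and the call held whichever library was removed (adjusted p = 0.0188 to 0.0415). Bdh1, the dehydrogenase that interconverts acetoacetate and 3-hydroxybutyrate (chromosome 16, 31422280 to 31458901), stood at 96.3, 94.3 and 80.3 CPM in controls 1 to 3 and 67.4, 64.5 and 64.7 CPM in deleted libraries 1 to 3. The groups did not overlap, and the deleted libraries lay close together. Its log2 fold change was -0.46 ± 0.087 (95% confidence interval -0.66 to -0.27, adjusted p = 0.0109), and the adjusted p was 0.0539 with control 2 removed. Exons of the gene model Gm15743 on the opposite strand cover 13.7% of the exon bases of Bdh1, and the strand setting of the counting is unknown.

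Of the acyl-CoA dehydrogenases, which start each round of mitochondrial oxidation, the medium- and short-chain enzymes fell. Acadm (chromosome 3, 153922357 to 153944632) stood at 136, 129.8 and 129.7 CPM in controls 1 to 3 and 111, 108 and 94.3 CPM in deleted libraries 1 to 3. Its log2 fold change was -0.34 ± 0.082 (adjusted p = 0.0338). Acads (chromosome 5, 115110299 to 115119346) stood at 151, 145 and 146 CPM in controls 1 to 3 and 112, 130.1 and 108 CPM in deleted libraries 1 to 3. Its log2 fold change was -0.34 ± 0.086 (adjusted p = 0.0414). The groups overlapped for neither gene. Acadm kept its call only with deleted library 1 removed (adjusted p = 0.0331), and removal of control 1, 2 or 3 or deleted library 2 or 3 gave 0.115, 0.101, 0.0809, 0.0781 and 0.0830. Acads kept its call only with deleted library 2 removed (adjusted p = 0.0255), and removal of control 1, 2 or 3 or deleted library 1 or 3 gave 0.125, 0.115, 0.0968, 0.0951 and 0.111. In those runs the log2 fold change stayed within -0.38 to -0.27 for Acadm and -0.43 to -0.29 for Acads.

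The long-chain enzymes did not pass. Acadvl, the very-long-chain dehydrogenase of the inner membrane, stood at 213, 210.0 and 259.6 CPM in controls 1 to 3 and 185, 219.5 and 197 CPM in deleted libraries 1 to 3, with overlap (-0.18, 95% confidence interval -0.41 to 0.045, adjusted p = 0.335). Exons of Dvl2 on the opposite strand cover 42.9% of its exon bases. Acadl, the long-chain dehydrogenase, stood at 200.2, 195 and 251 CPM in controls 1 to 3 and 225, 277 and 363 CPM in deleted libraries 1 to 3. Its estimate was positive, unlike those of the other 3 dehydrogenases, and control 3 lay within the range of the deleted libraries (0.42, 95% confidence interval 0.054 to 0.78, adjusted p = 0.163). Acadl passed with deleted library 1 removed (0.57, adjusted p = 0.0432), and its log2 fold change was 0.21 with deleted library 3 removed.

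Electrons from these dehydrogenases pass to the electron transfer flavoprotein, made of Etfa and Etfb, and from there through Etfdh to ubiquinone. Etfdh (chromosome 3, 79603788 to 79629500) stood at 83.5, 87.7 and 84.9 CPM in controls 1 to 3 and 71.1, 70.0 and 71.8 CPM in deleted libraries 1 to 3. The groups did not overlap, and its fall was the smallest among the called genes (log2 fold change -0.27 ± 0.070, adjusted p = 0.0462). The call was lost whichever library was removed (adjusted p = 0.0800 to 0.156), with no filter on low values (0.0978) and in DESeq2 (adjusted p = 0.102). Etfa stood at 121, 124 and 116 CPM in controls 1 to 3 and 88.6, 109.6 and 123 CPM in deleted libraries 1 to 3, so that deleted library 3 reached the controls (-0.17, adjusted p = 0.421). Etfb ranged from 135 to 154 CPM in the controls and from 134 to 168 CPM in the deleted libraries (0.10, adjusted p = 0.612). Of the 50-base stretches of its transcript, 67.3% also occur in the overlapping gene model Gm45233, so its count may be split.

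The later steps of the mitochondrial round had negative estimates for 5 of 5 genes, and 0 of the 5 passed. Hadha and Hadhb encode the subunits of the trifunctional protein for long chains. Hadha stood at 359, 323 and 392 CPM in controls 1 to 3 and 306, 356 and 315 CPM in deleted libraries 1 to 3 (-0.14, 95% confidence interval -0.35 to 0.074, adjusted p = 0.443). Hadhb stood at 159, 149.8 and 159 CPM in controls 1 to 3 and 124, 151 and 135 CPM in deleted libraries 1 to 3 (-0.19, 95% confidence interval -0.38 to 0.00325, adjusted p = 0.234). These genes start head to head on chromosome 5, 273 bases apart in RefSeq, and in both of them deleted library 2 lay among the controls. Of the 50-base stretches of the Hadhb transcript, 62.4% occur in other gene models, mainly Gm13910. Hadh, the dehydrogenase for shorter chains, stood at 491, 480.1 and 494 CPM in controls 1 to 3 and 478, 461 and 373 CPM in deleted libraries 1 to 3. All deleted libraries were below the controls, library 3 by the most (-0.16, adjusted p = 0.388). Echs1, the short-chain hydratase (-0.20, adjusted p = 0.231), and Acaa2, the thiolase (-0.26, adjusted p = 0.297), overlapped between groups.

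**Figure D2:**
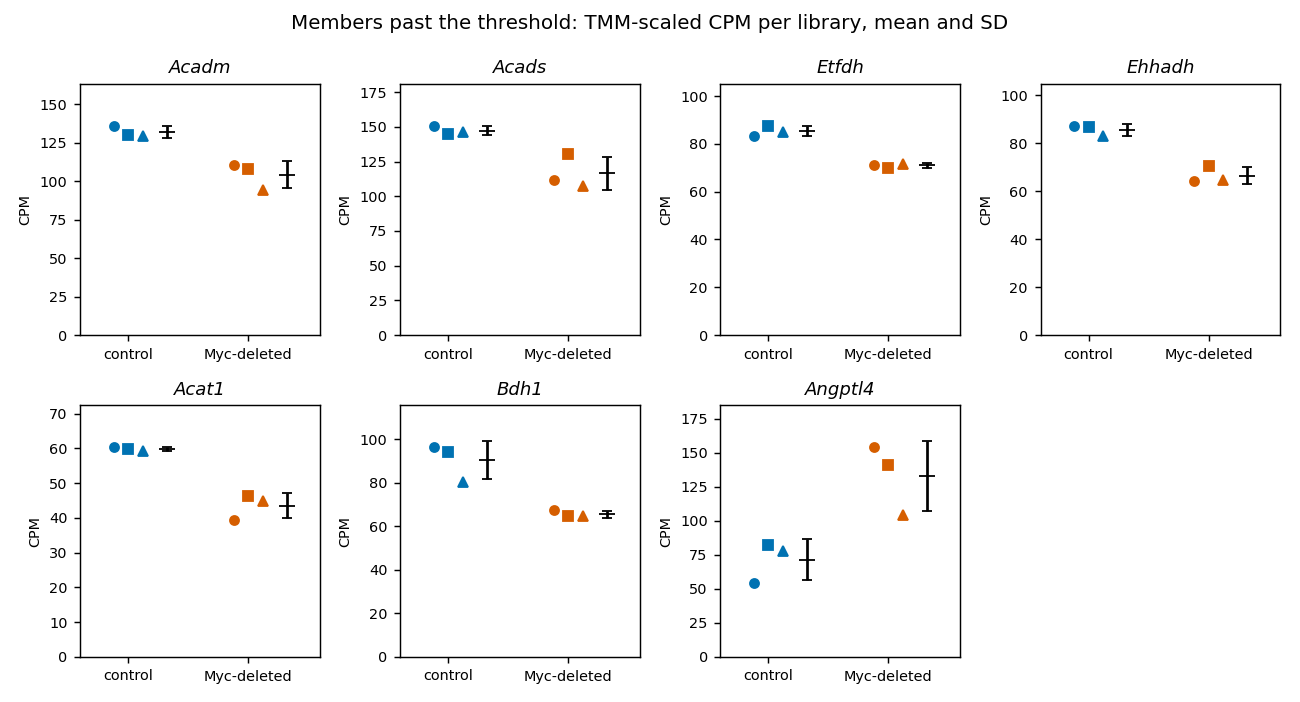
CPM (y axis, from 0) of the 7 called genes in the 3 control libraries (blue) and the 3 deleted libraries (orange), with the marker shape giving the library number and the black bar the mean and SD (n = 3). The groups do not overlap in any panel. Etfdh falls the least, from a mean of 85.3 to 71.0 CPM, and Angptl4 shows the widest spread among its deleted libraries, 104 to 154 CPM.

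Of the 5 genes of the carnitine shuttle, which carries acyl groups across membranes, 0 were called. Cpt1a, the carnitine palmitoyltransferase that controls entry into mitochondria, stood at 198, 207 and 214 CPM in controls 1 to 3 and 211, 206 and 184 CPM in deleted libraries 1 to 3. The groups overlapped (log2 fold change -0.047, 95% confidence interval -0.22 to 0.13, adjusted p = 0.785). Cpt2, its partner on the inner membrane (-0.14, adjusted p = 0.394), and the carnitine-acylcarnitine exchanger Slc25a20 (0.082, adjusted p = 0.652) overlapped as well. Crat, which makes acetylcarnitine, stood at 101, 100.1 and 107 CPM in controls 1 to 3 and 112, 129.7 and 114 CPM in deleted libraries 1 to 3. All of its deleted libraries lay above the controls, but the difference did not pass (0.21, 95% confidence interval 0.026 to 0.39, adjusted p = 0.165). Crot, the peroxisomal octanoyltransferase, ranged over 97.2 to 117 and 90.3 to 107 CPM (-0.11, adjusted p = 0.573).

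The auxiliary enzymes for unsaturated chains gave 0 calls of 4. Eci1, a mitochondrial enoyl-CoA isomerase, ranged over 31.9 to 33.6 CPM in the controls and 25.5 to 28.4 CPM in the deleted libraries. Its groups did not overlap, and it did not pass (-0.26 ± 0.086, adjusted p = 0.106). Eci2, a related isomerase (0.15, adjusted p = 0.507), the mitochondrial dienoyl-CoA reductase Decr1 (-0.12, adjusted p = 0.461) and its peroxisomal counterpart Decr2 (0.052, adjusted p = 0.763) overlapped between the groups.

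In the peroxisomal group, 1 of 6 genes fell. Ehhadh, a bifunctional hydratase and dehydrogenase and a classical Ppara target (chromosome 16, 21761287 to 21787807), stood at 87.4, 86.7 and 82.8 CPM in controls 1 to 3 and 64.4, 70.4 and 64.8 CPM in deleted libraries 1 to 3. The lowest control stood well above the highest deleted library (log2 fold change -0.36 ± 0.075, adjusted p = 0.0166). The adjusted p was 0.0646 with control 1 removed and 0.0700 with control 2 removed. Hsd17b4, the other bifunctional enzyme, which also handles branched chains, ranged over 166 to 201 and 163 to 219 CPM (95% confidence interval of the log2 fold change -0.26 to 0.29, adjusted p = 0.957). Abcd3, a peroxisomal importer of acyl chains, was nearly constant in the controls at 334 to 338 CPM and ranged from 306 to 389 CPM in the deleted libraries (adjusted p = 0.863). Pex11a, which promotes peroxisome division, did not pass (0.16, adjusted p = 0.370).

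The peroxisomal thiolases Acaa1a and Acaa1b are close copies. Acaa1a stood at 275, 305 and 326 CPM in controls 1 to 3 and 272, 289 and 267 CPM in deleted libraries 1 to 3 (-0.13, adjusted p = 0.394). Acaa1b stood at 9.14, 11.9 and 16.4 CPM in controls 1 to 3 and 10.4, 24.6 and 12.1 CPM in deleted libraries 1 to 3 (0.33, adjusted p = 0.595), with deleted library 2 apart from the rest. Of the 50-base stretches of the Acaa1b transcript, 35.5% occur in Acaa1a, so the division of reads between them is uncertain.

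Upstream sequence is shown for 3 of the 6 lower genes as examples, 1 each of the ketone, peroxisomal and mitochondrial groups. Each is the 250 bases before a RefSeq start site (GRCm38.p6), read 5′ to 3′ on the strand of the gene, with motif matches in capitals. The windows lie at chr16:31422047-31422296 on the plus strand for Bdh1 (the first of its 2 start sites), chr16:21787835-21788084 on the minus strand for Ehhadh and chr3:153944644-153944893 on the minus strand for Acadm. RefSeq windows were matched for 30 of the 37 genes (33 windows), without Crat, Acaa2, Decr1, Hsd17b4, Acat1, Angptl4 and Vnn1.
Bdh1: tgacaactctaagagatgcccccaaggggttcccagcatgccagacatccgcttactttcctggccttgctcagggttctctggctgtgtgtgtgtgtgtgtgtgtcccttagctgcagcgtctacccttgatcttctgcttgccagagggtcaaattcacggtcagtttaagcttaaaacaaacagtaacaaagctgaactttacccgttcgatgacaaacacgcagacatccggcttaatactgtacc
Ehhadh: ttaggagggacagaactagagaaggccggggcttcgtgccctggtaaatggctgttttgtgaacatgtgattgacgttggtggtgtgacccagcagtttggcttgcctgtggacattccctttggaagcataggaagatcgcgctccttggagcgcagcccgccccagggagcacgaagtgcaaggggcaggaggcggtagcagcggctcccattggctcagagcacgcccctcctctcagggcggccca
Acadm: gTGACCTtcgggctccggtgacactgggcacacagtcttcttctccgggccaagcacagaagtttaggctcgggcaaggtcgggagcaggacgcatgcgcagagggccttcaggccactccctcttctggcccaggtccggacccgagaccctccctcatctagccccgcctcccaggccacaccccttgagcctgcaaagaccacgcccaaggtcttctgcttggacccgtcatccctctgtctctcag
The hexamer AGGTCA, the repeat unit bound by Ppar and Rxr, was searched on both strands. It occurred in 5 of the 33 windows (15.2%) and in 14.0% of 32851 windows of all genes. Acadm holds it as TGACCT, its reverse complement, at 249 to 244 bases before the start. The windows of the lower genes Bdh1, Ehhadh, Acads and Etfdh do not hold it, and Acat1 had no window. The Etfdh window (chr3:79628768-79629017, minus strand) lies inside its GENCODE gene model, which begins at 79629500. It is thus not upstream of that start. The direct repeat AGGTCANAGGTCA, which contains that hexamer, had 0 exact matches in the 33 windows and was in 0.0335% of all windows. With up to 2 mismatches it occurred in 3 of the 33 windows (9.09%), against 3.24% of all windows. These were Acot12 (TGACCTCTCACCT), Etfa (TTACCTTTGCCCT) and Echs1 (AGGTCACGGGTCC), and 0 of these 3 genes were called. The E-box CACGTG, to which Myc with Max binds, was in 0 of the 33 windows and 6.02% of all windows. A match is a string of letters and not a bound site.

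**Figure D3:**
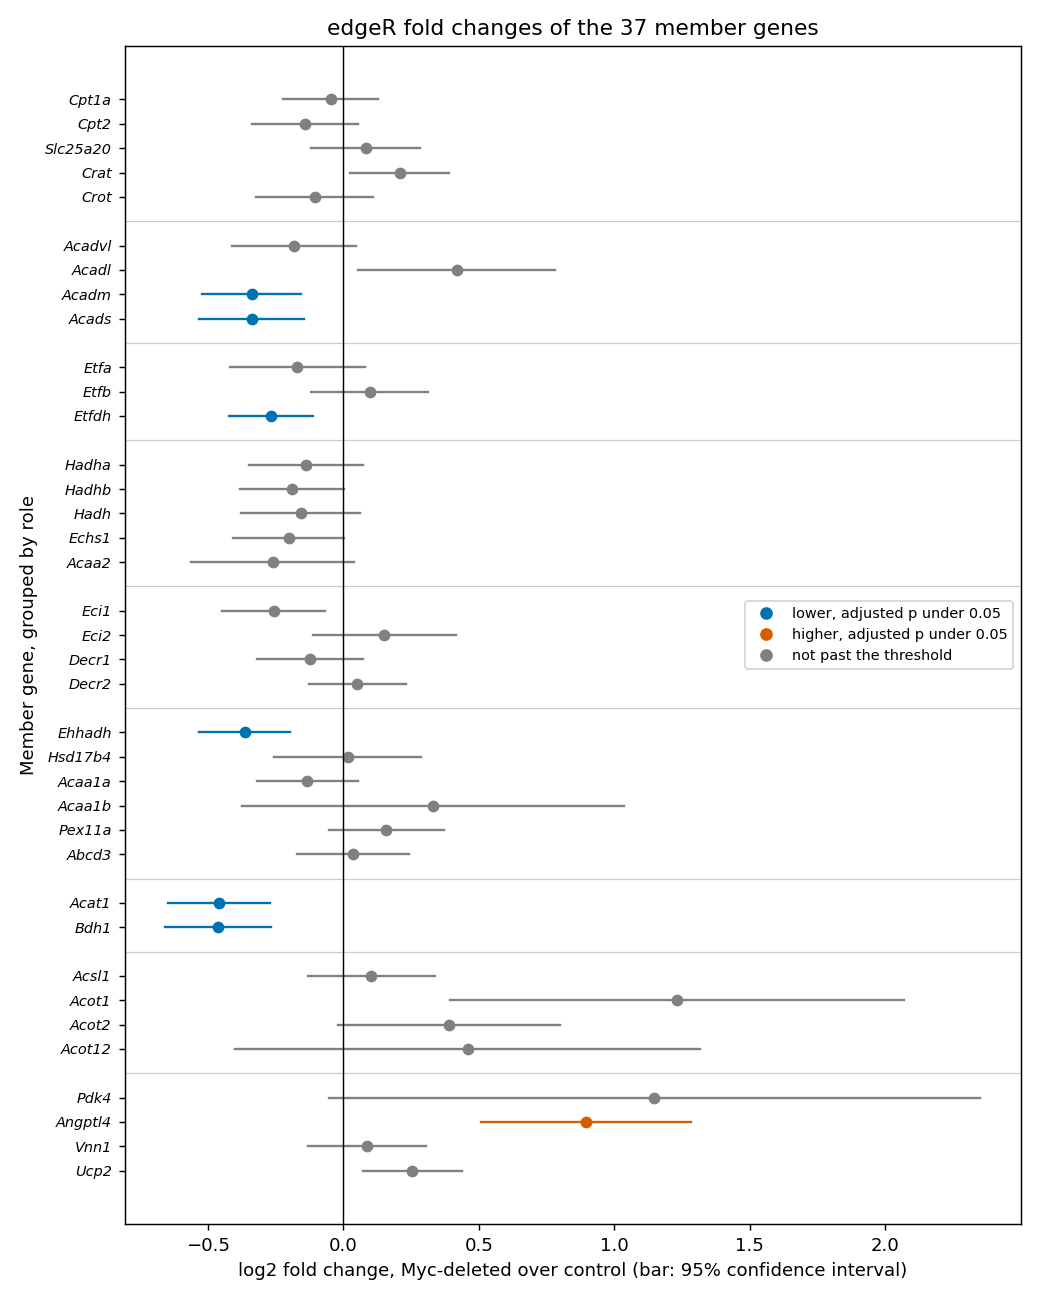
Log2 fold change of deleted over control (x axis) for each of the 37 genes, grouped by role (y axis), as the edgeR estimate (point) and its 95% confidence interval (bar), with blue for lower and orange for higher calls. The bars of Acadm, Acads, Etfdh, Ehhadh, Acat1 and Bdh1 lie below 0 and that of Angptl4 above it. Among genes not called, the bar of Eci1 lies below 0 and those of Crat, Acadl, Acot1 and Ucp2 above it. The bars are not adjusted for the number of genes tested. All 8 genes of the bottom 2 groups (acyl-CoA activation and hydrolysis, other Ppar targets) have positive estimates, although 7 of them were not called.

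Genes that activate or release acyl-CoA had positive estimates in 4 of 4 cases, with 0 called. Acsl1, a long-chain acyl-CoA synthetase, overlapped between groups at 27.8 to 33.5 and 30.1 to 36.3 CPM (0.10, adjusted p = 0.619). Acot1, a cytosolic thioesterase, was scarce, with at most 48.4 expected counts in a library. It stood at 1.39, 1.56 and 1.02 CPM in controls 1 to 3 and 1.83, 4.46 and 3.14 CPM in deleted libraries 1 to 3. Every deleted library lay above the controls, library 1 by the least, and the difference did not pass (log2 fold change 1.23 ± 0.37, adjusted p = 0.0801). It passed with no filter on low values (adjusted p = 0.0399) and with deleted library 1 removed (0.0290). Acot2, its mitochondrial copy, stood at 5.17, 5.01 and 6.03 CPM in controls 1 to 3 and 5.95, 8.08 and 7.20 CPM in deleted libraries 1 to 3 (0.39, adjusted p = 0.248), and 23.9% of the 50-base stretches of Acot1 occur in it. Acot12, an acetyl-CoA hydrolase, overlapped between the groups (1.82 to 4.80 against 2.93 to 6.78 CPM, adjusted p = 0.536).

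Of the other Ppar targets, Angptl4 rose and 3 genes did not pass. Angptl4 (chromosome 17, 33773750 to 33781830) stood at 54.2, 82.2 and 77.8 CPM in controls 1 to 3 and 154, 141 and 104 CPM in deleted libraries 1 to 3. The lowest deleted library was above the highest control (log2 fold change 0.90 ± 0.17, 95% confidence interval 0.51 to 1.28, adjusted p = 0.0126), and the call held whichever library was removed (adjusted p = 0.00582 to 0.0430). Pdk4, a kinase that keeps pyruvate out of the citrate cycle, stood at 3.18, 5.19 and 19.9 CPM in controls 1 to 3 and 12.8, 30.0 and 19.1 CPM in deleted libraries 1 to 3. It varied more within the controls than any other of the 37 genes (coefficient of variation 96.9%), control 3 lay within the range of the deleted libraries, and the difference did not pass (1.15, 95% confidence interval -0.055 to 2.35, adjusted p = 0.249). With control 3 removed the log2 fold change of Pdk4 was 2.28 (adjusted p = 0.0131), and over the 6 runs with 1 library removed it ranged from 0.74 to 2.28. Ucp2, a mitochondrial carrier, stood at 506, 521 and 570.1 CPM in controls 1 to 3 and 615, 673 and 617 CPM in deleted libraries 1 to 3, without overlap (0.25, 95% confidence interval 0.073 to 0.44, adjusted p = 0.0937). Vnn1, a pantetheinase in the recycling of coenzyme A, overlapped (0.086, adjusted p = 0.662).

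**Figure D4:**
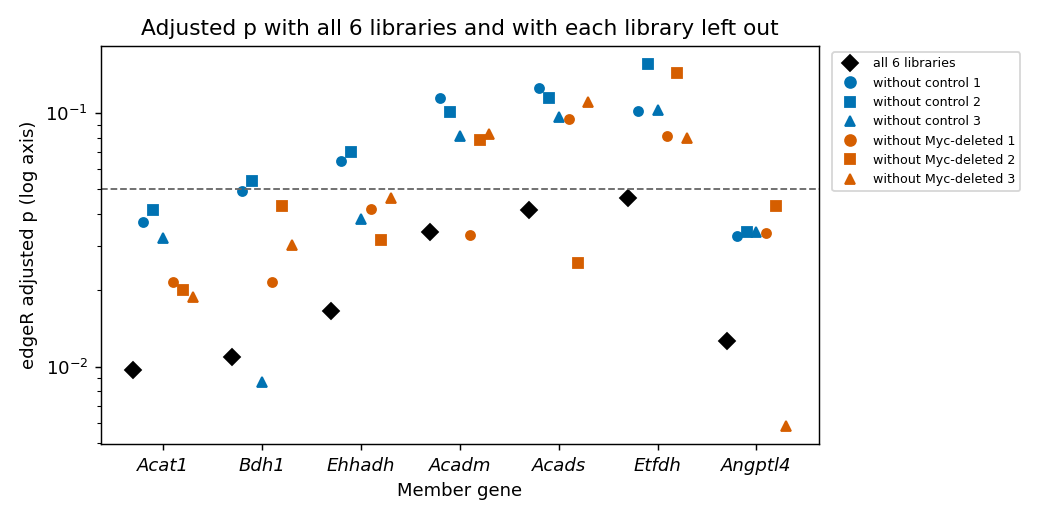
Adjusted p of the edgeR test (y axis, log scale) for the 7 called genes with all 6 libraries (black diamond) and with each control (blue) or deleted (orange) library removed, the marker shape giving the library number and the dashed line 0.05. Acat1 (0.0188 to 0.0415) and Angptl4 (0.00582 to 0.0430) stay under the line in all 6 runs, Bdh1 in 5, Ehhadh in 4, Acadm and Acads in 1 each and Etfdh in 0.

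Counting overlap in place of the test, 8 of the 37 genes were lower in every deleted library than in any control (the 6 called genes, Hadh and Eci1), where 13.7% of all tested genes were. Another 4 were higher (Angptl4, Crat, Acot1 and Ucp2), where 14.0% of all tested genes were. The libraries of a group also differed among themselves across the list. Deleted library 2 was the highest of its group for 25 of the 37 genes, and deleted library 1 the lowest for 23. Control 3 was the highest of its group for 22. The summed level of the 37 genes was 5048, 5123 and 5515 CPM in the controls and 4937, 5561 and 5076 CPM in the deleted libraries, so the sums overlapped. Levels of different genes were compared in the controls per kilobase of the joined exons of all transcripts of a gene. That length can exceed the length of any single transcript, so the order depends on the annotation too. Ucp2, with the highest mean CPM in the controls (532), has 6989 such bases and stood at 76.2 CPM per kilobase. On that scale the highest were Etfb (123 CPM per kilobase), Vnn1 (108), Acadl (108) and Hadh (98.1), whose order did not hold beyond the spread between controls (SD 8.82 for Etfb and 15.6 for Acadl). The called genes stood between 11.4 (Etfdh) and 64.9 (Acads) on that scale, and Acot1 was the lowest at 0.338.

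Of 21 tested receptors, partners and coactivators of the Ppar pathway, 1 fell and 1 rose. Over all tested genes 3.73% fell and 4.22% rose, so these counts are near the share of all genes. Ppard, a Ppar with a known role in intestinal epithelium, stood at 199.8, 189 and 234 CPM in controls 1 to 3 and 168, 144 and 137 CPM in deleted libraries 1 to 3. The groups did not overlap (log2 fold change -0.47 ± 0.11, adjusted p = 0.0240). The adjusted p of Ppard rose to 0.0575, 0.0795, 0.0879 or 0.0716 when control 1, control 3, deleted library 2 or deleted library 3 was removed. Ppara stood at 16.2, 14.6 and 18.4 CPM in controls 1 to 3 and 20.6, 19.3 and 13.8 CPM in deleted libraries 1 to 3, with overlap (0.13 ± 0.16, adjusted p = 0.686). Pparg stood at 7.45, 3.89 and 5.41 CPM in controls 1 to 3 and 8.05, 10.6 and 8.67 CPM in deleted libraries 1 to 3, without overlap (0.71, adjusted p = 0.0998). It passed with no filter on low values (adjusted p = 0.0407) and with control 1 removed (0.0437). The partner receptor Rxra (-0.12, adjusted p = 0.473) and the coactivator Ppargc1a (-0.28, adjusted p = 0.387) did not pass. Creb3l3, a membrane-bound transcription factor that works with Ppara on fasting genes, rose, at 322, 284 and 362 CPM in controls 1 to 3 and 502, 546 and 419.7 CPM in deleted libraries 1 to 3 (0.60 ± 0.12, adjusted p = 0.0130). Its adjusted p was 0.0739 with control 2 removed and 0.0553 with deleted library 2 removed.

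**Figure D5:**
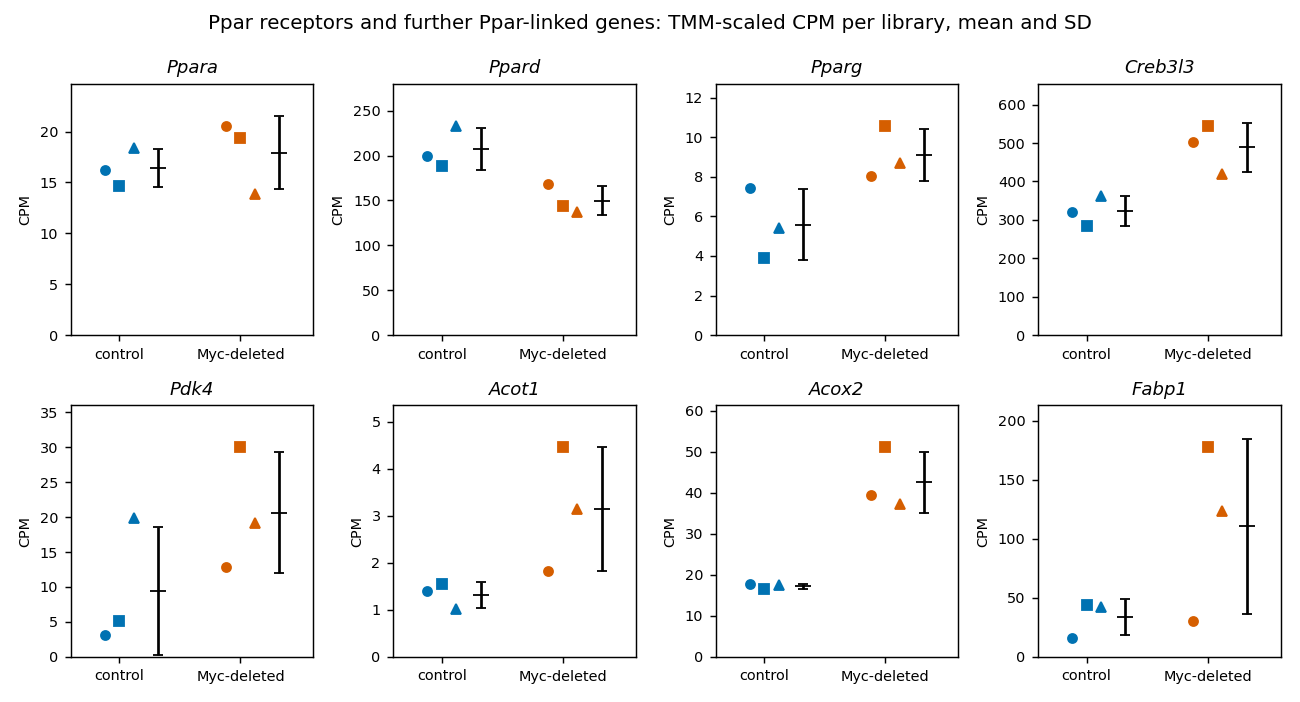
CPM (y axis, from 0) of the 3 Ppar receptors and of 5 Ppar-linked genes in the 3 control (blue) and 3 deleted (orange) libraries, with the marker shape giving the library number and the black bar the mean and SD (n = 3). Ppard is lower, and Creb3l3, Acox2, Acot1 and Pparg are higher, in every deleted library than in any control. Of these, Acot1 and Pparg were not called. Deleted library 1 is the lowest of its group for Pdk4, Acot1, Pparg and Fabp1.

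Of 134 other genes of these pathways, 108 were tested, 8 rose and 11 fell, where 4.22% of all tested genes rose and 3.73% fell. The median log2 fold change of the 108 was -0.071. With 1 library removed at a time, 4 to 10 rose and 2 to 5 fell, the fewest in both directions with control 2 removed. Over all genes, 229 rose and 233 fell with control 2 removed, against 537 and 474 with no library removed. The fallers included 5 of 15 tested genes of mitochondrial oxidation, where 13 of 15 estimates were negative and the median was -0.37. Ivd, the dehydrogenase of leucine breakdown, stood at 14.9, 18.6 and 18.6 against 10.4, 11.8 and 11.9 CPM (adjusted p = 0.0184). Its adjusted p was 0.0840 with control 2 removed and 0.0643 with control 3 removed. The others were Pccb and Mut of the propionate route (-0.49 and -0.44, adjusted p = 0.0333 and 0.0361), the dehydrogenase Acad11 (-0.36, adjusted p = 0.0368) and the dienoyl-CoA isomerase Ech1 (-0.27, adjusted p = 0.0458). Pccb kept its call in 2 of the 6 runs with 1 library removed, Mut in 1, and Acad11 and Ech1 in 0 (adjusted p of Ech1 up to 0.154). Ppard, described above, was a further faller. Pdk1, a pyruvate dehydrogenase kinase, stood at 30.1, 30.5 and 33.3 against 22.1, 17.6 and 19.3 CPM (-0.67 ± 0.11, adjusted p = 0.00511) and kept its call in each of the 6 runs. The monoglyceride lipase gene Mgll (-0.64, adjusted p = 0.0359) kept its call in 0 runs, and the peroxisomal genes Pxmp2 (-1.24, adjusted p = 0.0207) and Nudt19 (-0.42, adjusted p = 0.0272) in 1 each.

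Of the 8 risers, Acox2, the peroxisomal oxidase of bile acid intermediates and branched chains, had the lowest adjusted p. It stood at 17.7, 16.4 and 17.5 CPM in controls 1 to 3 and 39.3, 51.1 and 37.2 CPM in deleted libraries 1 to 3. The groups lay far apart (1.31 ± 0.13, adjusted p = 0.000704), and the call held whichever library was removed. Ephx2, the soluble epoxide hydrolase (0.51 ± 0.084), Tsku, a secreted proteoglycan (1.73 ± 0.31), and Cidec, a lipid droplet protein (0.51 ± 0.10), also rose and kept their calls in each of the 6 runs. Cidec is on the adipocyte marker list too, on which 4 of 7 markers were at 0. Acsl5, a long-chain acyl-CoA synthetase of the intestine, stood at 1016, 984 and 1108 against 1274, 1577 and 1562 CPM (0.51 ± 0.10, adjusted p = 0.0168). The adjusted p of Acsl5 rose to 0.0644, 0.0895, 0.0709 or 0.0541 when control 1, control 2, deleted library 2 or deleted library 3 was removed. Acot7, a cytosolic thioesterase (0.55 ± 0.11), kept its call in 3 of the 6 runs (adjusted p up to 0.0895, lost with control 1, control 2 or deleted library 2 removed). Fabp2, a fatty acid binding protein that is also on the enterocyte marker list, stood at 5315, 4153 and 4808 against 6795, 11013 and 8768 CPM (0.90 ± 0.18, adjusted p = 0.0132) and lost its call with control 2 removed (0.0693). Creb3l3 was the remaining riser.

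Among the named genes that did not pass, Fabp1, a fatty acid binding protein under Ppara control, stood at 16.0, 43.6 and 41.9 CPM in controls 1 to 3 and 30.5, 178 and 124 CPM in deleted libraries 1 to 3. Deleted library 1 lay within the controls, and libraries 2 and 3 lay far above them (1.71 ± 0.54, adjusted p = 0.0918). It passed with no filter on low values (adjusted p = 0.00296) and with deleted library 1 removed (0.00635). The fatty acid transporter gene Slc27a2 stood at 9.94, 11.3 and 17.7 against 3.29, 8.64 and 8.40 CPM (-0.93 ± 0.33, adjusted p = 0.122) and passed in DESeq2 (adjusted p = 0.0282) and with no filter on low values (0.0202). Slc27a4, the main relative of Slc27a2 in enterocytes (0.21, adjusted p = 0.252), the carnitine transporter Slc22a5 (0.11, adjusted p = 0.466), the muscle-type Cpt1b (0.16, adjusted p = 0.683) and the lipid droplet gene Plin2 (0.12, adjusted p = 0.534) did not pass. Cd36, with 3 to 16 counts per library, and Cyp4a10, with 0 or 1, were too low to test.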

How the data were processed

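Messenger RNA of 6 libraries was prepared with a stranded kit, per the labels' protocols. The deposited values are expected counts per gene, which the authors did not scale between libraries. The submitters' processing notes name cutadapt, STAR, Picard, RSEM and the build mm10. For versions, annotation and strand setting, the answer is not given in the sources used here. Symbols (99.1% of 47643 genes matched), positions, exon lengths and shared 50-base stretches of the longest coding transcript came from GENCODE M21 (GRCm38).

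Rounded counts were filtered in edgeR 4.0.16 under R 4.3.3 (filterByExpr with a minimum of 10 per library and 15 in all), brought to TMM scale and compared, deleted over control, by the quasi-likelihood F-test across all genes, with Benjamini-Hochberg adjustment and a threshold of 0.05. The SE came from dividing the absolute log2 fold change by the root of F. A count of 3 equals 0.265 to 0.301 CPM, for counting error only. The genes and lists were chosen with earlier results of these data known. Named were all 37 genes, a fixed set of the other pathway genes where measured and those of that list that were called, and results for some genes are not reported here. Other scalings (RLE, upper quartile), DESeq2 1.42.0, limma voom (limma 3.58.1), 2 other filters, a block for the replicate number and removal of each library were tried. A further alternative, TMM factors computed without ribosomal protein genes, was chosen after seeing the data. Of the steps above, the comparison of deleted over control was tried on simulated counts. Recovery was 8% for planted differences of 1.25 times and 48% for 1.5 times. For 2 and 4 times it was 78% and 98%, and 5 of the 121 calls were false. Only 50 genes were changed at each size, and the data gave 537 higher and 474 lower calls. Spread followed the trend over expression level, without differences between genes. The rates need not hold for the data. Small differences were thus often missed in the simulation, and a gene that did not pass may still differ by such an amount.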

Additional observations from a re-analysis of the deposited data

How the results depend on the processing

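The count of lower genes among the 37 was 4 to 6 under other scalings, filters, tests or the replicate block, and 1 to 4 with a library removed. The count of higher genes was 2 without a filter on low counts (Angptl4 and Acot1), 2 with the replicate block (Angptl4 and Acadl) and 1 to 3 with a library removed. Removing a library gave 4 to 10 higher and 2 to 5 lower among the other pathway genes, and 229 to 503 higher and 233 to 447 lower among all genes, each such run having fewer samples. The labels do not tie same-numbered libraries together. Their deviations from the group means correlated at 0.0261, 0.0524 and 0.0189 across genes, and at -0.0359 to 0.00983 for unlike numbers. Each library correlated best with its own number. The values are small, and deviations from a shared group mean are not independent, so they cannot show whether the libraries are paired. With the replicate block, Acads (adjusted p = 0.0558) and Etfdh (0.0818) lost their calls and Acadl (0.0400) gained one. Of the other named genes, Mut (0.0511), Acad11 (0.0596), Mgll (0.0692) and Ech1 (0.0744) lost their calls under the block, and Fabp1 (0.00228) and Slc27a2 (0.0321) gained one. The counts over all genes were then 552 higher and 428 lower. Upper-quartile scaling moved the median log2 fold change of all genes from -0.00212 to -0.043 and changed none of the calls among the 37. Among the named genes the direction turned for 4, which were not called. With upper-quartile scaling these were Hsd17b4 (-0.0235) and Abcd3 (-0.00388). With a library removed the log2 fold change ran from -0.0866 to 0.00666 for Cpt1a, -0.142 to 0.0949 for Hsd17b4, -0.157 to 0.57 for Acaa1b and -0.0668 to 0.115 for Abcd3. The cause of these changes was not tested. With 3 libraries a group, Acot1, Acot12, Pdk4 and Acaa1b had the widest intervals of the 37. Scarcity did not order the widths. Acot2 averaged 5.40 CPM in the controls with an SE of 0.18, and Pdk4 9.43 CPM with an SE of 0.54.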
